A study of Mus musculus with 12 samples.

Results

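Dietary fat is rebuilt and packaged for export by a small set of genes in the absorptive cells of the intestine, and RNA polymerase II (Pol II) at these genes was followed from crypt to villus and in villi labelled as lacking HNF4. The set comprised 10 genes listed by name: Apoa1, Apoa4, Apob, Apoc3, Mttp, Mogat2, Dgat1, Dgat2, Fabp1 and Fabp2. Of these, 9 were among the 6429 genes of both comparison tables that the authors deposited, and Apoa1 was in neither. All 10 had counting windows in the authors' promoter table, and 9 had windows in the gene body table, Apoa1 again being the exception.

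Fatty acids and monoacylglycerol from digested fat enter the enterocyte, where fatty acid binding proteins carry the fatty acids and MOGAT2 and the DGAT enzymes join them to glycerol as triglyceride. In the endoplasmic reticulum the microsomal triglyceride transfer protein, MTTP, loads this triglyceride onto apolipoprotein B, the structural protein of the chylomicron, and smaller apolipoproteins such as APOA1, APOA4 and APOC3 join the particle. Chylomicrons leave the cell toward the lymph. HNF4A and HNF4G are nuclear receptors, transcription factors that bind DNA, and are made in the intestinal epithelium.

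Pol II was measured in mouse duodenal epithelium by chromatin immunoprecipitation and sequencing (ChIP-seq), with 3 libraries each from wild-type (WT) villus cells, WT crypt cells and villus cells labelled as Hnf4 alpha and gamma double knockout (DKO), and 3 inputs, 1 per group, that were not used. Crypts hold the dividing cells and villi the differentiated ones. Mice of the DKO group received tamoxifen at 50 mg/kg/day for 2 days and were killed 1 day after the last dose, and all WT mice received oil vehicle without tamoxifen. Tissue was treated with EDTA for 25 minutes in the DKO group and for 35 minutes in the WT groups, so genotype, tamoxifen and EDTA time cannot be told apart. The Cre driver of the knockout and the ages of the mice are not given in the sources used here. The labels do not say whether the 3 libraries of a group came from separate mice, so the p-values measure the spread between libraries.

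The values below come from the authors' deposited tables, which give for each gene a mean Pol II signal over all libraries (counts divided by size factors, here called normalised counts), a log2 fold change with its standard error (SE, printed after ±) and a DESeq2 p-value adjusted over all 6429 genes. A gene was called when that adjusted p was under 0.05. The tables hold no value per library. In its place, the mean of each group was rebuilt from the mean signal and both fold changes, with each group given the same weight, and these rebuilt means carry no spread of their own. A higher signal at one gene than at another was not read as more Pol II, since the length over which each was counted is not stated. Sums over lists and selections of genes by mean signal, used below, take no account of that length. Positive values mean more Pol II in the first-named group, following the tables' names.

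The targeted genes were read first. In the authors' deposited table of the genotypes, the log2 fold change of WT over DKO-labelled villus was -0.54 ± 0.14 at Hnf4a and -1.45 ± 0.22 at Hnf4g, so Pol II signal over both was higher in the villi labelled DKO. Pol II signal over a gene does not measure whether an exon was removed, and the part deleted is not given in the labels, so these values do not check the labels. Groups are named by their labels throughout, and each direction between genotypes rests on them. The identity of the tissue was read from marker genes. Of 12 genes typical of villus enterocytes, 11 were in the tables, each of them called higher in WT villus than crypt in the authors' deposited table, from Dpp4 at 0.96 to Akp3 at 2.28. No gene of the lists for Paneth cells (5 genes), mesenchyme (7 genes) or liver and pancreas (5 genes) was among the 6429 genes, so those cells were not analysed here.

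Promoter sequences were taken from RefSeq (GRCm38.p6) for the 6 set members that the table holds, namely Apoa1, Apoa4, Apob, Fabp1, Fabp2 and Mttp. The 4 shown are the 250 bases before the transcription start of the genes with the largest WT over DKO-labelled differences among them (Apoa4 and Apob) and of both fatty acid binding protein genes, whose differences lay far apart. Capitals mark each match on either strand to CAAAGNNCA, a loose form of the DNA element bound by HNF4, and to TATAAA. The positions are chr9:46240594-46240843, plus strand for Apoa4, chr12:7977427-7977676, plus strand for Apob, chr3:122894822-122895071, plus strand for Fabp2 and chr6:71199629-71199878, plus strand for Fabp1.
Apoa4: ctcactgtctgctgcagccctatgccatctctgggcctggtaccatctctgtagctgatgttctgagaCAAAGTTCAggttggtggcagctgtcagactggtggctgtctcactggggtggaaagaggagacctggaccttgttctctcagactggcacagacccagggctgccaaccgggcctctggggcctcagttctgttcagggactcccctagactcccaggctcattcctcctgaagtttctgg
Apob: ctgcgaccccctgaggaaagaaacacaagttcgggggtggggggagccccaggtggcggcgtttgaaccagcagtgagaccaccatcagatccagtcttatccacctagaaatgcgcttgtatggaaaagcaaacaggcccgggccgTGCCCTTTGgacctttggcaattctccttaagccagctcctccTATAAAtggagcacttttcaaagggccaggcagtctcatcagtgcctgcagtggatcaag
Fabp2: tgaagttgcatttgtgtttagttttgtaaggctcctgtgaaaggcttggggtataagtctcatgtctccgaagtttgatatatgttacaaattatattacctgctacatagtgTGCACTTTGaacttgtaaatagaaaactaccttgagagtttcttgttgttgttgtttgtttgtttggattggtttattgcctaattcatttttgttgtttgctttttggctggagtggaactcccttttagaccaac
Fabp1: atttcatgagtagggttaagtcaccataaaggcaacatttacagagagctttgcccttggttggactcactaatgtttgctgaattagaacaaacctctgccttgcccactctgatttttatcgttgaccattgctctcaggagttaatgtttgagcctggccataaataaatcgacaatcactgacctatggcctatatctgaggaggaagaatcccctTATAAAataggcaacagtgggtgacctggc

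A match to CAAAGNNCA stood in 3 of the 6 promoters, against 5.49% of all 32851 RefSeq promoters of the same length. Mttp, Apoa1 and Fabp1 had no match in the sequence read. By the authors' windows Mttp has starts at 137806382 and 137794617 (mm9). A single Mttp sequence was read, so the promoter of its other start was not searched. Mttp, not shown, had a larger WT over DKO-labelled value (2.51) than Fabp2 (2.46). Among the sequences read, the matches thus did not follow the size of the difference. In Apoa4 it read CAAAGTTCA on the gene's strand, from 182 to 174 bases before the start. In Apob it read TGCCCTTTG, the reverse complement of a match, from 103 to 95 bases before the start, and in Fabp2 it read TGCACTTTG, likewise on the other strand, from 137 to 129 bases before the start. The stricter forms CAAAGTCCA and CAAAGGTCA, which CAAAGNNCA takes in, stood in none of the 6 and in 0.384% and 0.426% of all promoters. TATAAA stood in Fabp1, from 30 to 25 bases before the start, and in Apob, from 60 to 55, against 12.4% of all promoters. TTTATNG, of the kind bound by CDX homeobox factors, had 3 matches in Fabp1 and 1 each in Fabp2 and Apob, the Apob match overlapping its TATAAA, and stood in 9.81% of all promoters. These matches describe the letters in the windows and are no measure of binding.

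From crypt to villus, Pol II signal rose at 8 of the 9 genes in the authors' deposited table, and no gene was called lower, where 18.6% of all genes were called higher in villus and 18.8% lower. The median log2 fold change of the 9 genes was 1.42, with a range from 0.80 to 2.11, against a median of -0.04 for all genes. The gene not called was Dgat2. Between the genotypes all 9 genes were called in the authors' deposited table (51.9% of all genes), 8 higher in WT villus (22.4% of all genes) and Dgat2 higher in DKO-labelled villus (29.5% of all genes). The median log2 fold change of WT over DKO-labelled villus was 2.44, with a range from -1.54 to 3.87, against -0.08 for all genes. With the values centred on that median, 1710 of all genes were higher and 1422 lower in WT villus, against 1443 and 1895 as deposited, and the members' calls did not change. Both comparisons use the WT villus libraries, so their values are given side by side. In bulk chromatin, fewer cells of a type and less Pol II per cell cannot be told apart. The enterocyte markers moved with the members: between genotypes each of the 11 passed with more signal in WT villus, with summed rebuilt signals of 16552 in WT villus, 6280 in crypt and 5146 in DKO-labelled villus. The 9 fat absorption genes summed to 6423, 2837 and 3065 normalised counts in the same groups. Such sums weigh each gene by its signal. Dgat2 alone gave 1476 of the sum in DKO-labelled villus and 277 of that in crypt, so the sums do not give the order of groups at most members. The part of cell composition in the members' values was not tested.

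**Figure D1:**
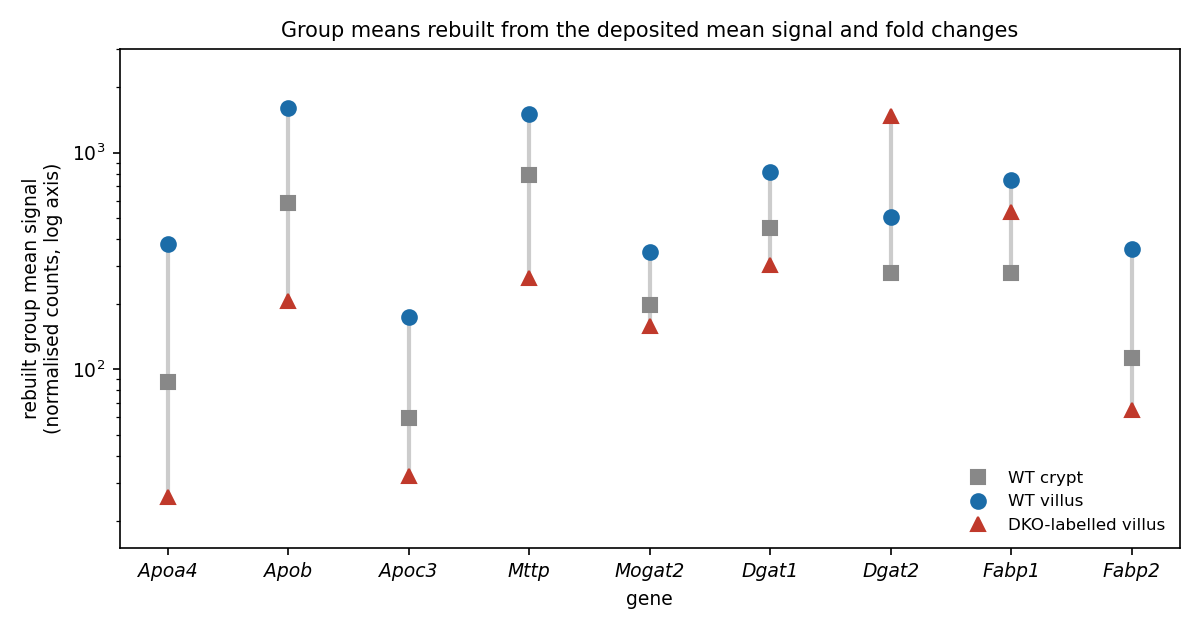
Rebuilt group mean Pol II signal (normalised counts, log axis) of the 9 genes in WT crypt (squares), WT villus (circles) and DKO-labelled villus (triangles), with grey lines joining the groups of a gene. By these means WT villus was the highest group at every gene but Dgat2 and DKO-labelled villus the lowest at every gene but Dgat2 and Fabp1, though the step from crypt to DKO-labelled villus did not pass at Mogat2, Dgat1 and Fabp2.

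Among the apolipoproteins, Apoa4 and Apob had the largest differences between genotypes of the 9 genes. Apoa4, which encodes a lipid-binding apolipoprotein secreted on chylomicrons, had rebuilt mean signals of 87.4 normalised counts in WT crypt, 377 in WT villus and 25.8 in DKO-labelled villus. Its signal was thus highest in WT villus and lowest in DKO-labelled villus, below crypt. The authors' deposited tables gave it a log2 fold change of 2.11 ± 0.20 for villus over crypt (DESeq2 adjusted p 1.41e-23) and 3.87 ± 0.22 for WT over DKO-labelled villus (adjusted p 1.97e-67). These values ranked 5 and 7 of 6429 genes from the highest. On the linear scale DKO-labelled villi had 6.84% of the WT villus signal (95% interval 5.08 to 9.21).

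Apob encodes the structural protein of which each chylomicron carries a single molecule. Its rebuilt means were 585 normalised counts in WT crypt, 1600 in WT villus and 206 in DKO-labelled villus. The authors' deposited tables gave 1.45 ± 0.11 for villus over crypt and 2.96 ± 0.11 for WT over DKO-labelled villus (DESeq2 adjusted p 1.84e-40 and 1.39e-162), ranks 72 and 22. DKO-labelled villi had 12.9% of the WT signal (11.1 to 14.9). Apoc3, whose protein slows the clearance of triglyceride-rich particles from blood, had a mean signal of 88.8 normalised counts over all libraries. Its rebuilt means were 59.8 in WT crypt, 175 in WT villus and 32.1 in DKO-labelled villus. The deposited log2 fold changes in the authors' deposited tables were 1.55 ± 0.16 and 2.44 ± 0.17 (DESeq2 adjusted p 1.61e-19 and 3.27e-43), and DKO-labelled villi had 18.4% of the WT signal (14.5 to 23.3). All 3 apolipoprotein genes therefore had the same order of groups, and Apoa4 stood beyond the other two. Its value exceeded that of Apob by 0.66 (95% interval 0.21 to 1.10) between compartments and by 0.91 (0.44 to 1.39) between genotypes, with errors of the genes taken as independent.

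Apoa1, Apoc3 and Apoa4 lie side by side on chromosome 9. By the authors' windows (mm9, per the submitters' processing notes) the Apoa1 start lay at 46036713 on the plus strand, the start of 3 of the 4 Apoc3 transcripts at 46043382 on the minus strand, and the Apoa4 start at 46048927 on the plus strand, so the Apoa1 and Apoa4 starts were 12.2 kb apart. Apoa1, the main protein of high-density lipoprotein, had a promoter window and no gene body window, and its Pol II was not analysed here. Its RefSeq length of 1840 bases (GRCm38.p6) less the 850 bases left out of a plus-strand gene body window is 990, while the shortest gene body window in the table was 1001 bases long. Of 2657 gene symbols with promoter windows alone, 4 were in the comparison tables, against 6388 of 22462 symbols with both windows. The nearest tested gene beyond Apoa4 was Zpr1, 30.005 kb from it, which had values of opposite sign in the authors' deposited tables, at -0.35 ± 0.14 for villus over crypt and -0.32 ± 0.13 for WT over DKO-labelled villus (DESeq2 adjusted p 0.0308 and 0.0312). Sidt2, the nearest tested gene on the Apoa1 side at 273 kb, moved like the cluster by a smaller amount, at 0.51 ± 0.12 and 0.63 ± 0.12.

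**Figure D2:**
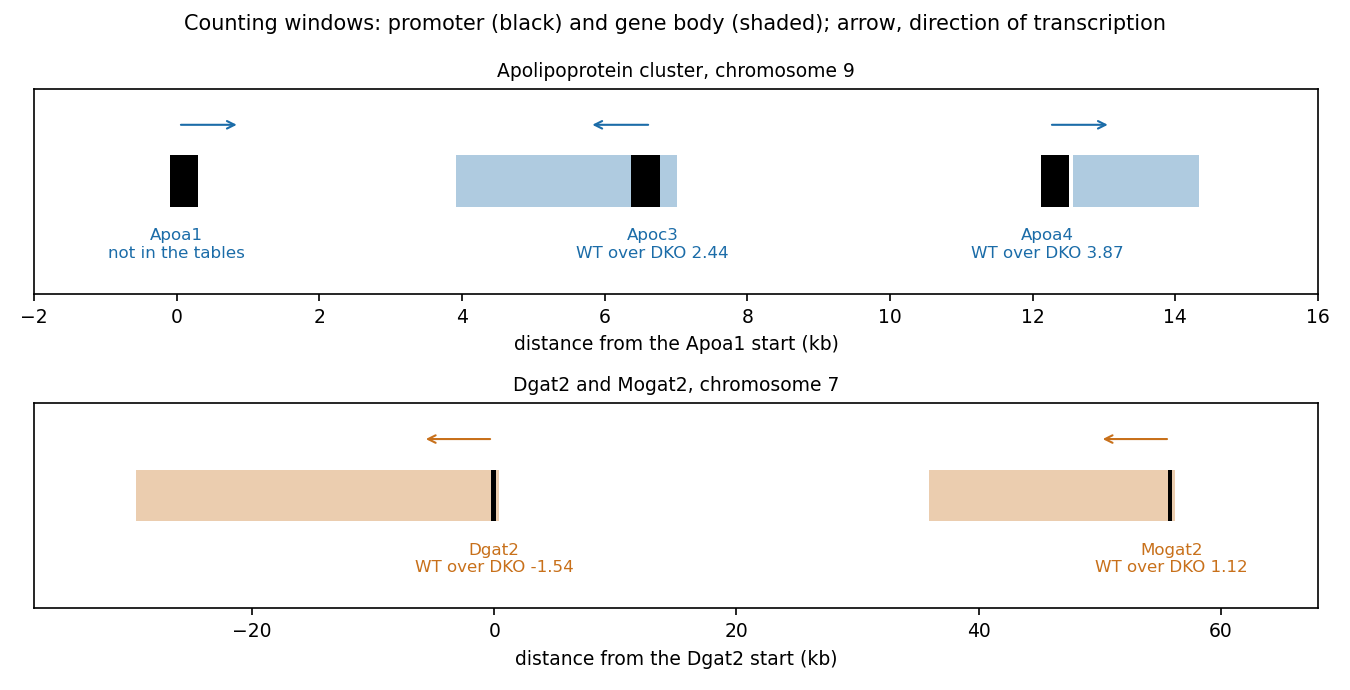
Counting windows along the apolipoprotein cluster and the Dgat2 and Mogat2 locus, in kb from the Apoa1 or Dgat2 start, with promoter windows in black, gene body windows shaded, arrows for the direction of transcription, and the deposited log2 fold change of WT over DKO-labelled villus under each gene. The shaded windows of the minus-strand genes run over their promoter windows, that of Apoa4 starts after its promoter window, and Mogat2 (1.12) and Dgat2 (-1.54) have opposite signs.

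Mttp encodes the large subunit of the lipid transfer protein that lipidates apolipoprotein B. Its rebuilt means were 791 normalised counts in WT crypt, 1507 in WT villus and 265 in DKO-labelled villus. In the authors' deposited tables Mttp had 0.93 ± 0.27 for villus over crypt (DESeq2 adjusted p 0.00217) and 2.51 ± 0.27 for WT over DKO-labelled villus (adjusted p 1.07e-19), so that DKO-labelled villi had 17.6% of the WT signal (12.3 to 25.3). Its SE in the comparison of genotypes was wide for its signal, as the median SE of the 200 genes nearest in mean signal was 0.11. Mttp and its partner Apob did not differ beyond their 95% interval in either comparison, at -0.52 (-1.08 to 0.038) and -0.45 (-1.01 to 0.11) for Mttp minus Apob. The files place Mttp on the minus strand of chromosome 3 with starts at 137806382 for 3 transcripts and 137794617 for another, and its windows overlap those of Trmt10a, a gene outside the tables. Its nearest tested neighbours were Dapp1 at 107 kb and Adh1 at 134 kb. Between the genotypes Dapp1 was called higher in DKO-labelled villus, at -0.38 ± 0.11, and Adh1 higher in WT villus, at 1.34 ± 0.23, in the authors' deposited table.

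The 3 enzymes of triglyceride synthesis divided between the genotypes. MOGAT2 adds a fatty acid to monoacylglycerol, the main route in the intestine, and DGAT1 and DGAT2, which are unrelated in sequence, each catalyse the last step to triglyceride, DGAT2 belonging to the same protein family as MOGAT2. Mogat2 had rebuilt means of 199 normalised counts in WT crypt, 346 in WT villus and 159 in DKO-labelled villus, and Dgat1 had 447, 811 and 304. WT villus was the highest group at both, and the step from crypt down to DKO-labelled villus, which passed at the apolipoproteins, did not pass at either. For Mogat2 the authors' deposited tables gave 0.80 ± 0.12 and 1.12 ± 0.12 (DESeq2 adjusted p 1.13e-09 and 8.12e-19), so that DKO-labelled villi had 46.0% of the WT signal (39.0 to 54.3). For Dgat1 they gave 0.86 ± 0.18 and 1.41 ± 0.18 in the authors' deposited tables (DESeq2 adjusted p 2.61e-05 and 1.93e-13), so that DKO-labelled villi had 37.5% of it (29.2 to 48.2). Dgat1 minus Mogat2 was 0.29 (-0.14 to 0.73) between genotypes, so their order was not resolved.

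Dgat2 had another order of groups, with rebuilt means of 277 normalised counts in WT crypt, 506 in WT villus and 1476 in DKO-labelled villus. In the authors' deposited table its log2 fold change of WT over DKO-labelled villus was -1.54 ± 0.53 (DESeq2 adjusted p 0.00900), a 2.92-fold higher signal in DKO-labelled villi with a 95% interval of 142 to 600% of WT. From the lowest value, this ranked 37 of 6429 genes. Villus over crypt was 0.87 ± 0.53 (adjusted p 0.195, interval -0.17 to 1.91) in the authors' deposited table, so a rise was not resolved. Tested against a log2 change of 0.5 rather than 0, Dgat2 did not pass between genotypes, with an adjusted p of 0.379. Its SE was the 7th largest of all genes in both tables, where the 200 genes nearest in mean signal had a median SE of 0.11. The wide SE marks a spread between libraries, possibly of any group, that the tables do not break down. Whether 1 library carries it was not tested.

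Dgat2 and Mogat2 are neighbours on the minus strand of chromosome 7, with starts at 106331223 and 106387121 (mm9), 55.9 kb apart and with no other gene of the window tables lying between them. Their WT over DKO-labelled values differed by 2.66 (95% interval 1.60 to 3.73) and those of Dgat1 and Dgat2 by 2.96 (1.86 to 4.06), with opposite signs in each pair. From crypt to villus the same pairs differed by -0.07 (-1.14 to 1.00) and -0.01 (-1.12 to 1.09), intervals that allow a difference of 1 on the log2 scale either way. The next tested genes outward were Tsku, at 791 kb on the Dgat2 side, and Rps3, at 238 kb on the Mogat2 side. Tsku was not called between genotypes, at 0.14 ± 0.31, and Rps3 was called higher in DKO-labelled villus, at -0.70 ± 0.21, in the authors' deposited table. Dgat1, on chromosome 15 with its start at 76342424, lies among tested genes that moved in its direction. Hsf1, whose windows end 0.856 kb from those of Dgat1, had 0.48 ± 0.11 and 0.78 ± 0.11 in the authors' deposited tables, and Fbxl6, at 22.9 kb, had 0.39 ± 0.16 and 0.61 ± 0.16.

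The 2 fatty acid binding proteins are carriers of one family that share the enterocyte cytoplasm, FABP1 being also the main form of the liver and FABP2 the intestinal form. Fabp1 had rebuilt means of 277 normalised counts in WT crypt, 744 in WT villus and 531 in DKO-labelled villus, and Fabp2 had 113, 358 and 65.0. The rebuilt mean of DKO-labelled villi lay above that of crypt for Fabp1, a difference that was called, and below it for Fabp2, where the difference did not pass. Between compartments the authors' deposited table gave 1.42 ± 0.19 for Fabp1 and 1.66 ± 0.45 for Fabp2 (DESeq2 adjusted p 6.09e-13 and 0.00125), a difference of 0.24 that its interval of -0.72 to 1.20 does not resolve. Between genotypes Fabp1 had 0.49 ± 0.18 and Fabp2 2.46 ± 0.45 in the authors' deposited table (DESeq2 adjusted p 0.0180 and 4.19e-07), so that DKO-labelled villi had 71.4% (55.7 to 91.6) and 18.2% (9.78 to 33.7) of the WT signal. This difference of 1.98 had an interval of 1.02 to 2.94. Fabp1 was the smallest of the 8 changes toward WT villus and did not pass an adjusted p of 0.01.

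Fabp2 (start at 122597990, plus strand of chromosome 3) lies wholly inside the gene body window of 4933405D12Rik, a transcript of the minus strand, and the file headers record no use of strand in counting. Reads of the 2 genes cannot be told apart where they overlap. 4933405D12Rik also rose in the authors' deposited tables, at 0.97 ± 0.23 for villus over crypt and 1.14 ± 0.23 for WT over DKO-labelled villus. The Fabp2 SE was the 18th largest of all genes in both tables. Fabp1 (start at 71149873, plus strand of chromosome 6) overlaps no other window, and its tested neighbours Rpia, at 407 kb, and Krcc1, at 67.0 kb, were not called higher. Rpia was called lower in villus and lower in WT, at -0.36 ± 0.09 in both comparisons of the authors' deposited tables, and Krcc1 was not called in either.

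**Figure D3:**
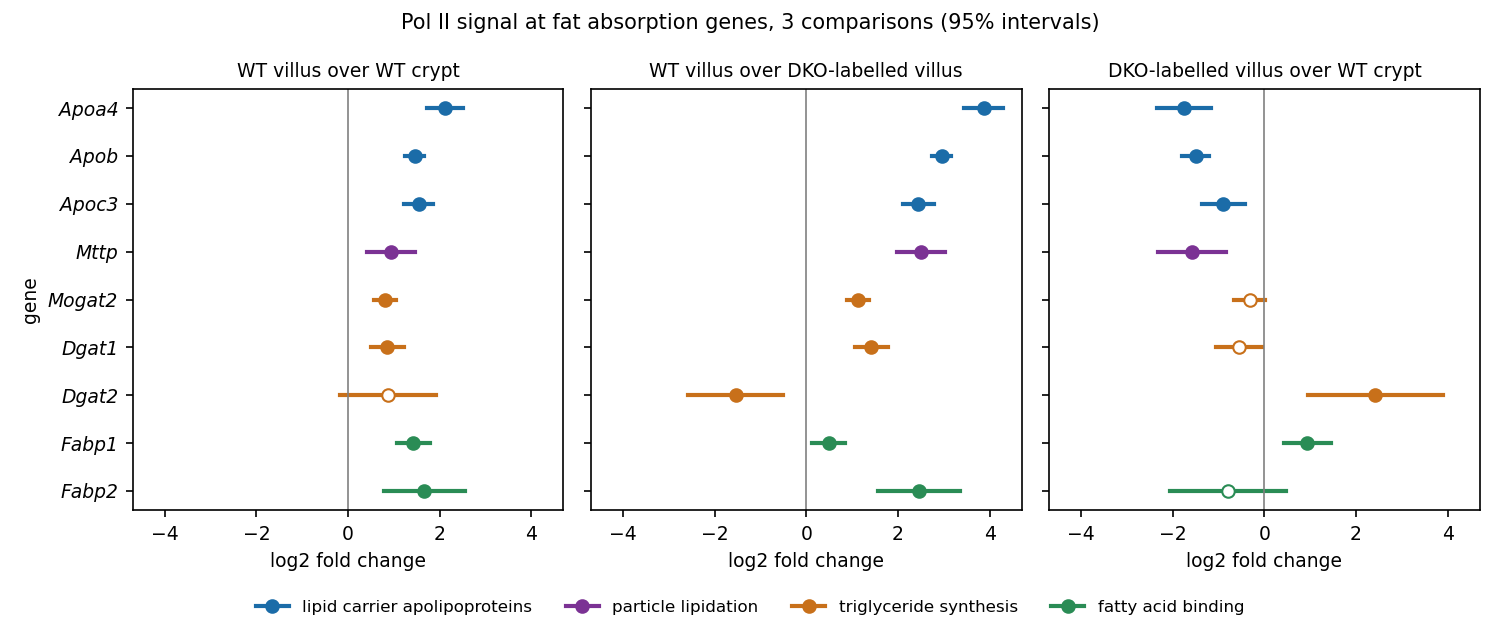
Log2 fold changes of the 9 genes (points) with 95% intervals (lines) in 3 comparisons, coloured by role, with filled points for called genes and open points for genes not called. All 9 points lie right of 0 for villus over crypt, Dgat2 alone lies left of 0 for WT over DKO-labelled villus, and Dgat2 and Fabp1 alone lie right of 0 for DKO-labelled villus over crypt.

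Within the set, no gene differed from the next in the order of villus over crypt values beyond the 95% interval of their difference. Genes further apart could differ, as Apoa4 exceeded Apoc3 by 0.56 (0.058 to 1.07). The order was taken from these same values, and the intervals are unadjusted, with errors of the genes taken as independent. The steps therefore describe the order and do not test it. Between genotypes 4 steps from a gene to the next lay beyond the interval. Apoa4 stood above Apob, Apob, Mttp, Fabp2 and Apoc3 ran on without a resolved step, Apoc3 stood above Dgat1 by 1.03 (0.53 to 1.52), Mogat2 stood above Fabp1 by 0.64 (0.20 to 1.07), and Fabp1 stood above Dgat2 by 2.03 (0.93 to 3.13). The carrier and assembly genes Apoa4, Apob, Apoc3 and Mttp together with Fabp2 thus lay between 2.44 and 3.87, while Mogat2, Dgat1 and Fabp1 lay between 0.49 and 1.41.

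DKO-labelled villus was also set against WT crypt, by subtracting one deposited log2 fold change from the other, with the largest SE that independent libraries allow. In this comparison 4 genes had less Pol II in DKO-labelled villus than in crypt (7.19% of all genes) and 2 had more (6.41%). The 4 lower genes were Apoa4 at -1.76 ± 0.30, Mttp at -1.58 ± 0.38, Apob at -1.50 ± 0.15 and Apoc3 at -0.90 ± 0.24. Their adjusted p-values, by a Wald test on the rebuilt difference with Benjamini-Hochberg adjustment over all genes, were 2.20e-07, 5.77e-04, 5.87e-21 and 0.00249. All 4 encode the particle's apolipoproteins or its lipidation factor. The 2 higher genes were Dgat2 at 2.41 ± 0.75 and Fabp1 at 0.94 ± 0.26, with adjusted p-values of 0.0143 and 0.00430. Dgat2 ranked 4 of 6429 genes from the highest in this comparison. The values of Dgat1 at -0.56 ± 0.26, Fabp2 at -0.80 ± 0.64 and Mogat2 at -0.32 ± 0.17 did not pass. Crypt markers were read beside these values: 3 of 10 crypt stem genes and 3 of 10 proliferation genes were in the tables. The 3 proliferation genes Pcna, Ccnd1 and Ccnd2 were called higher in DKO-labelled than in WT villus, from -0.62 to -1.11 for WT over DKO-labelled villus in the authors' deposited table. Their summed rebuilt signals were 270.1 in WT villus, 459 in crypt and 511 in DKO-labelled villus. Between DKO-labelled villus and crypt none of the 3 was called, with values from -0.32 at Pcna to 0.33 at Ccnd2. Of the stem cell genes Myc alone was called between the genotypes, at -0.67 ± 0.18, and Sox9 had 0.26 ± 0.19. Sox9 was called lower in DKO-labelled villus than in crypt, at -0.93 ± 0.26, and the other stem cell genes were not called there. Stem cell sums were 308 in WT villus, 473 in crypt and 387 in DKO-labelled villus. The part of these markers in the members' values was not tested. For goblet cells all 6 markers were in the tables, and between genotypes 3 were called, each higher in DKO-labelled villus, with Agr2 lowest at -1.06 and Tff3 highest at 0.17. Goblet sums were 3024 in WT villus, 1903 in crypt and 3354 in DKO-labelled villus. The other lists were thinly covered. Of the enteroendocrine list Chga and Sct were in the tables, at 0.12 and 1.02 between genotypes, of the immune list Gzma and Cd74, at -0.23 and 1.33, and of the tuft list Avil, at -0.08, in the authors' deposited table.

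**Figure D4:**
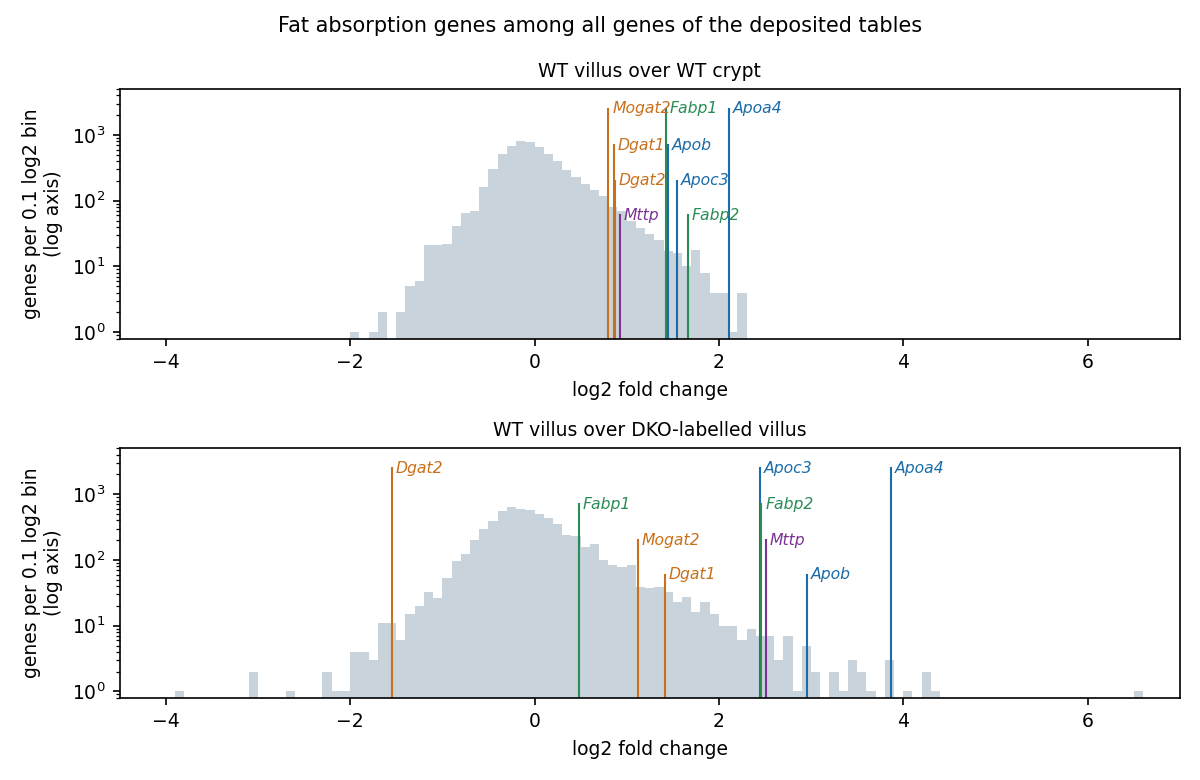
Histograms of the deposited log2 fold changes of all 6429 genes (bins of 0.1, log count axis) for both comparisons, with vertical lines at the 9 fat absorption genes; the heights of the lines carry no value. For villus over crypt the 9 genes lie between 0.80 and 2.11, and for WT over DKO-labelled villus they spread from Dgat2 at -1.54 to Apoa4 at 3.87.

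The rest of the fat absorption pathway was read from a list of 64 further genes, of which 46 were in the tables. From crypt to villus 29 rose, 2 fell and 15 were not called in the authors' deposited table, with a median log2 fold change of 0.42, where 18.6% of all genes rose and 18.8% fell. Between genotypes 27 had called values toward WT villus (22.4% of all genes), 3 were called higher in DKO-labelled villus (29.5%) and 16 were not called, with a median of 0.49, against -0.08 for all genes. Among the 5 genes of uptake and activation in the tables, 4 were called higher in WT than in DKO-labelled villus (22.4% of all genes). Npc1l1, the cholesterol uptake protein of the brush border, had 1.29 ± 0.22 for villus over crypt and 2.34 ± 0.23 for WT over DKO-labelled villus, and Slc27a4, a fatty acid transport protein with acyl-CoA synthetase activity, had 1.16 ± 0.12 and 1.76 ± 0.12 in the authors' deposited tables. Slc27a2, of the same family, had 0.15 ± 0.11 and 0.84 ± 0.11, being called between genotypes alone. Dbi, the acyl-CoA binding protein, was called in neither.

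Both partners of the sterol exporter, Abcg5 and Abcg8, were called higher in WT villus in both of the authors' deposited tables, with 1.05 ± 0.11 and 1.13 ± 0.19 between compartments and 1.45 ± 0.11 and 1.63 ± 0.19 between genotypes. Of the other apolipoproteins Apoc2, the activator of lipoprotein lipase, had the largest value of the list for villus over crypt at 1.73 ± 0.19, and 2.19 ± 0.19 between genotypes. Apoa2 had 0.51 ± 0.16 and 1.48 ± 0.17 in the authors' deposited tables. Apoe moved the other way, at -0.74 ± 0.19 and -0.42 ± 0.19 (DESeq2 adjusted p 4.52e-04 and 0.0454). Apom was called in neither table.

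Of the 14 genes of esterification and lipid droplets, 10 rose from crypt to villus (18.6% of all genes), and between genotypes 7 passed toward WT villus (22.4%) and 1 toward DKO-labelled villus (29.5%). That 1 gene was Plin2, the coat protein of cytoplasmic lipid droplets, with -1.09 ± 0.17 in the authors' deposited table (DESeq2 adjusted p 4.70e-10), and it was not called between compartments, at -0.21 ± 0.17. Its droplet partner Plin3 had 0.69 ± 0.08 and 0.91 ± 0.08. Soat2, which esterifies cholesterol, had 0.64 ± 0.13 and 1.55 ± 0.14. Agpat2, an acyltransferase of phosphatidic acid synthesis, rose in villus at 0.83 ± 0.18 and had -0.15 ± 0.18 between genotypes, not called, in the authors' deposited tables. Agpat1, Agpat3 and Lpcat3 were called in neither comparison, and Lpin2 and Pnpla2 were called between compartments alone.

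In the 14 genes of particle assembly and export, 10 rose from crypt to villus (18.6% of all genes) and 9 were called higher in WT than in DKO-labelled villus (22.4%), none being called the other way. Between genotypes the values of all 14 were lower than at Apob and Mttp. Tm6sf2, which takes part in lipidation of apolipoprotein B particles, had 0.48 ± 0.12 and 1.48 ± 0.12, and P4hb, the protein disulfide isomerase that is the small subunit of the MTTP complex, had 0.64 ± 0.16 and 1.00 ± 0.16 in the authors' deposited tables. Sar1b, the small GTPase of the vesicles that carry chylomicrons from the endoplasmic reticulum, had 0.36 ± 0.10 and 0.39 ± 0.10 there, while its paralog Sar1a had -0.21 ± 0.12 and -0.24 ± 0.11, called in neither. Prap1, whose protein binds MTTP, rose in villus at 1.20 ± 0.27 and was not called between genotypes, at 0.27 ± 0.26. Apobec1, the enzyme that edits Apob messenger RNA, had 0.40 ± 0.18 and -0.30 ± 0.18, and Vapa and Sec24c lay near 0, the 3 genes being called in neither of the authors' deposited tables.

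Among 7 regulators in the tables Creb3l3, a membrane-bound transcription factor that activates Apoa4, had 1.39 ± 0.12 for villus over crypt and 1.23 ± 0.11 for WT over DKO-labelled villus. Nr1h3, a sterol-sensing nuclear receptor, was called between genotypes alone, at 0.47 ± 0.15, and Ppara, the nuclear receptor for fatty acids, was called higher in DKO-labelled villus, at -0.85 ± 0.10 (DESeq2 adjusted p 7.83e-17), in the authors' deposited table. Plagl2 fell from crypt to villus, at -0.37 ± 0.10, and was not called between genotypes, as Ppargc1a was not. Xbp1 was called in neither.

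**Figure D5:**
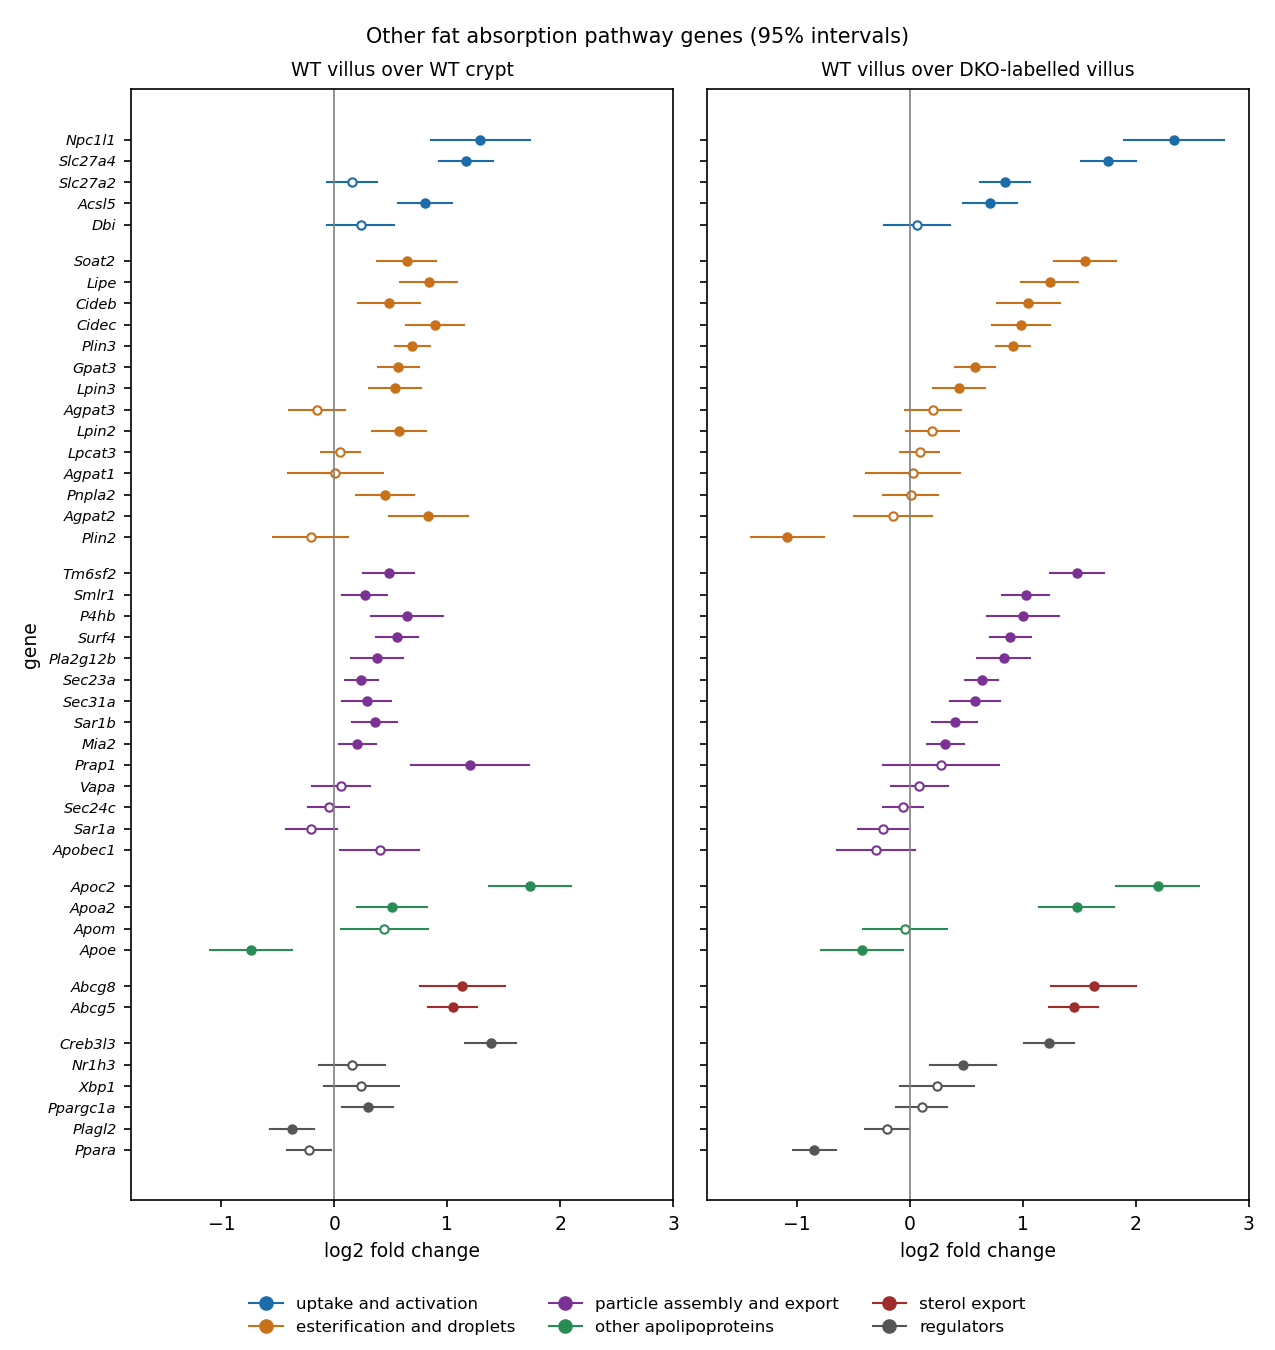
Deposited log2 fold changes (points) with 95% intervals (lines) of 45 further pathway genes, grouped by function, for villus over crypt and for WT over DKO-labelled villus, with filled points for called genes. Between genotypes 26 of the genes drawn are called right of 0, and Plin2, Ppara and Apoe are called left of it.

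On the chromosome, the 9 tested genes and Apoa1 had 14 different tested neighbours outside the set. Of these, 6 were called higher in villus (18.6% of all genes), 4 higher in crypt (18.8%) and 4 in neither direction in the authors' deposited table. Between genotypes 6 were called higher in WT villus (22.4% of all genes), 5 higher in DKO-labelled villus (29.5%) and 3 in neither direction. The 14 include 4933405D12Rik, whose reads cannot be told apart from those of Fabp2 where they overlap. The neighbours' median log2 fold changes were 0.24 and 0.14, against 1.42 and 2.44 for the set. Apob, on chromosome 12 with its start at 7984483 and a gene body window of 38313 bases, had its nearest tested neighbours far off, Rhob at 481 kb and Ubxn2a at 3070 kb. Rhob was called in both of the authors' deposited tables, at 1.29 ± 0.19 and 0.72 ± 0.18, and Ubxn2a in neither. The neighbours of Fabp2 beside 4933405D12Rik were 4930447N08Rik at 92.6 kb, with -0.39 ± 0.12 and -0.56 ± 0.11, and, without an overlap, Sec24d at 368 kb, with 0.29 ± 0.17 and 0.46 ± 0.17.

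Genes with a like pattern were found by the distance between pairs of log2 fold changes over the 2 comparisons, among genes with at least the median signal. Nearest to the set's median pair were Gprin1 (distance 0.053), Slc26a6 (0.12), H2-Q2 (0.13), Npc1l1 (0.17) and Ggt1 (0.18). For single members the nearest genes were Crip1 for Apoa4 (0.15), Btnl5-ps for Apob (0.14), Gprin1 for Apoc3 (0.069), Eps8l3 for Mttp (0.079), Pklr for Mogat2 (0.027), C530008M17Rik for Dgat1 (0.040), Sgk1 for Dgat2 (0.19), Epha2 for Fabp1 (0.025) and Lct for Fabp2 (0.026). Sgk1, like Dgat2, had wide errors in the authors' deposited tables, at 0.69 ± 0.48 and -1.61 ± 0.48. These distances rest on 2 values per gene that share the WT villus libraries.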

How the data were processed

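Pol II ChIP-seq of 9 libraries in 3 groups was analysed from the authors' 2 tables of comparisons and the positions in their 2 window tables. Per the submitters' processing notes, Bowtie2 2.2.6, SAMtools 0.1.19, DESeq2 1.36.0 and build mm9 were used. Per the file headers the tables are DESeq2 results. For each gene the authors deposited a mean signal, which is the mean of size-factor-scaled counts, a log2 fold change and its standard error, a Wald score, and a p-value with its adjusted form. The window counted, gene filter and shrinkage are not stated. The window tables were made with featureCounts 2.0.3, per the file headers, which record read pairs, a minimum mapping quality of 30, no duplicates and all overlapping windows counted. Their columns have no names, so 18 columns of counts were not used, depth per library is unknown here, and the planned edgeR tests were not run.

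Gene body windows differed by strand. On the plus strand all 19858 began 350 bases after the start. On the minus strand all 21190 began 350 bases before it and held the whole promoter window of 402 bases. Of the set, Apoc3, Mttp, Mogat2, Dgat1 and Dgat2 are on the minus strand. The commonest gene body length was 850 bases under the RefSeq gene length on the plus strand and 850 over it on the minus strand. Whether the comparison tables use these windows is not stated.

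Transcripts were matched to symbols through RefSeq (GRCm38.p6), which covered 6392 of 6429 genes. Rebuilt values, intervals of 95% (1.96 SE) and the DKO-labelled villus against crypt comparison were computed with Python 3.11.15, numpy 2.4.6 and scipy 1.17.1, and the test was checked on simulated data. Deposited Wald scores, and adjusted p-values from the deposited p-values, were recomputed to within 3.76e-07. Signs were checked across genes: the difference of squared standard errors between the tables followed the difference of inverse rebuilt means with Spearman's rho of 0.68 as named, 0.30 with the villus and crypt sign reversed and below 0 with the sign of the genotypes reversed. Named genes were all members, the pathway genes that were not called or had the 5 largest changes, the highest and lowest marker of each list, chromosome neighbours and the nearest patterns. The genes singled out beyond that rule were chosen after their values were seen. A regulator counted in the pathway list is not reported here by name. The members and lists were chosen with earlier results of these data known.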

Additional observations from a re-analysis of the deposited data

How the results depend on the processing

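The members' counts kept within 1.5 times of the reported ones under an adjusted p under 0.01, centring on the median of all genes, a mean signal of at least 100 and leaving out Fabp2 for its overlap (the last chosen after seeing the data). With a log2 fold change beyond 1 the members called for villus over crypt fell to 5 from 8 (285 of all 6429 genes), and against changes up to 0.5 to 4 (252 of all genes). Between genotypes 7 of 9 passed against changes up to 0.5 (637 of all genes), where Dgat2 and Fabp1 did not. For DKO-labelled villus against crypt 6 of 9 were called as reported, and 2 of 9 passed against changes up to 0.5 (Apoa4 and Apob, with 90 of all genes). With the larger of the 2 standard errors 8 were called (1891 of all genes), Mogat2 and Dgat1 (adjusted p 0.0343 and 0.0117) being added. Pathway calls for villus over crypt were 31 of 46 genes (2403 of all 6429), with 7 beyond 1 (285 of all) and 6 against 0.5 (252 of all). Between genotypes they were 30 of 46 (3338 of all), with 14 (559 of all) and 19 (637 of all). For DKO-labelled villus against crypt they were 14 of 46 (874 of all), with 2 (223 of all) and 0 (90 of all). With the larger standard error they were 27 (1891 of all). The count of 0 is by the Wald test on the rebuilt difference, where 3 of the 46 had an unadjusted p under 0.05. These settings ask for larger changes or smaller errors by construction. No alternative reversed the sign of a member's value. No paired analysis was possible because the count columns carry no names or replicate numbers and the comparison tables hold group contrasts alone. Leaving out each replicate, DESeq2 size factors against TMM, and filters on counts were not run for that reason. The standard error is the measure of precision here, and it limits Dgat2 and Fabp2 most.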
